A study of Mus musculus with 13 samples.

Results

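Dexamethasone-gained glucocorticoid receptor (GR) sites that were missing in corepressor-knockout liver are described here. They are GR peaks of dexamethasone-treated control liver whose centre had no GR peak centre of vehicle-treated control liver, vehicle-treated knockout liver or dexamethasone-treated knockout liver within 500 bp. The sites were chosen by these 4 peak lists, so their presence in 1 list and absence from the other 3 is the rule and not a finding. The rule kept 9511 of 40853 control dexamethasone GR peaks, 23.3% of that list. Another 4241 peaks (10.4%) were gained under the drug in both genotypes, meaning that a dKO dexamethasone peak but no vehicle peak of either genotype lay within 500 bp, and are called kept sites. A further 16704 peaks (40.9%) had a peak within 500 bp in all 3 other lists and are called constant sites. Of the 13752 drug-gained peaks that were either missing or kept, 69.2% were missing.

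GR and the corepressor NCOR1 were mapped by chromatin immunoprecipitation and sequencing (ChIP-seq) in liver of male mice. Control animals carry the genotype label GFP, and knockout animals carry the label CRE and are called dKO, a knockout that includes NCOR1. The promoter or vector behind GFP and CRE, the cell types in which CRE acts and the animals' age and strain are not given in the sources used here. Each mouse received vehicle or 1 mg/kg dexamethasone, a synthetic GR agonist, by injection at zeitgeber time 8, and liver was collected after 2 h, at zeitgeber time 10. The 4 GR groups combine both genotypes with both treatments, and the 2 libraries of each group were pooled into 1 peak list. NCOR1 was mapped in control vehicle (1 library), control dexamethasone (2 libraries, pooled) and dKO vehicle (1 library).

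GR is a nuclear receptor that stays in the cytoplasm until it binds glucocorticoid and then enters the nucleus, where it binds a palindromic DNA element directly or is held at chromatin by other factors. In liver it is known for raising genes of gluconeogenesis and amino acid catabolism during fasting and for shaping the acute phase response. NCOR1 is a scaffold protein through which HDAC3, a histone deacetylase, reaches nuclear receptors, and it is best known for repression in the absence of ligand.

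The GR lists rested on 27.5 to 31.9 M tags (M, 10 to the power of 6) and held 23362 to 40853 peaks. The NCOR1 lists rested on 17.5 to 36.9 M tags and held 17282 to 39458 peaks. GR peaks took up 7.23% of tags in control dexamethasone and 4.11% in dKO dexamethasone liver, although the dKO list was the deeper of both. At constant sites the tag count of the matched dKO dexamethasone peak was 0.757 times that of control dexamethasone (median over 16704 sites, 10th to 90th percentile 0.505 to 1.09), and at kept sites it was 0.752 times. Tag counts come from separately pooled lists, so this lower level in dKO was not tested, and neither was its part in which sites were called missing. Because replicates were pooled, no value below has a spread between animals, and intervals on shares are exact 95% Clopper-Pearson intervals that cover counting error only.

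Of the members, 312 had their centre in a promoter window of the RefSeq table (GRCm38.p6, 250 bases before to 50 after a transcription start), among them those of several secreted liver proteins. Shown here are the windows of 5 of the 8 strongest such members, because these are sites whose sequence can be read beside their values. Capitals mark letters found by search on either strand: the GR hexamer TGTTCT, the CEBP motif TTGCNNAA, the nuclear receptor hexamer AGGTCA, the forkhead motif TGTTTAC and the HNF1 hexamer GTTAAT.
Serpina1e (chr12:103956848-103957147, minus strand): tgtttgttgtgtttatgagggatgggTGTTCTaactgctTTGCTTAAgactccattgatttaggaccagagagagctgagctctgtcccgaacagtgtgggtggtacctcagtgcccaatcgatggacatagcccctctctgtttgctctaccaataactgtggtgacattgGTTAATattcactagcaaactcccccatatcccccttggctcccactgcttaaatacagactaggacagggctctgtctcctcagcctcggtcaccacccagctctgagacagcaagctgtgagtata
Saa1 (chr7:46742931-46743230, minus strand): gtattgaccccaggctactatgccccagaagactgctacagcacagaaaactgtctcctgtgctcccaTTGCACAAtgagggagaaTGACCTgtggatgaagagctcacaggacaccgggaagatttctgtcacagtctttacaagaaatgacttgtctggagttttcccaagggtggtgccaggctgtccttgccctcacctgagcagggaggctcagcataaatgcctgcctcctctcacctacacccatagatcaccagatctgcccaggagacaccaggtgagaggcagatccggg
Fgb (chr3:83049814-83050113, minus strand): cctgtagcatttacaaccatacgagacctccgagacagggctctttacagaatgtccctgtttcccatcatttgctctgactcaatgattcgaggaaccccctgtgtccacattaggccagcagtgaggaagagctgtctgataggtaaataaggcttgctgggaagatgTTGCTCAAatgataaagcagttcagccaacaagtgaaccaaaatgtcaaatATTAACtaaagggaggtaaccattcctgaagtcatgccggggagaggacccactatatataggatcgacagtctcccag
Mgst1 (chr6:138141337-138141636, plus strand): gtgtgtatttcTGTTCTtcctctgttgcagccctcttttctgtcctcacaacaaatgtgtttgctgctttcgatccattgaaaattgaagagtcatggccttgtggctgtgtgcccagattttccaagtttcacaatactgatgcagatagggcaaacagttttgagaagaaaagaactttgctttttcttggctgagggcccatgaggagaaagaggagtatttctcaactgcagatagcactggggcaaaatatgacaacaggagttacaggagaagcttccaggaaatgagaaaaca
Ddc (chr11:11898095-11898394, minus strand): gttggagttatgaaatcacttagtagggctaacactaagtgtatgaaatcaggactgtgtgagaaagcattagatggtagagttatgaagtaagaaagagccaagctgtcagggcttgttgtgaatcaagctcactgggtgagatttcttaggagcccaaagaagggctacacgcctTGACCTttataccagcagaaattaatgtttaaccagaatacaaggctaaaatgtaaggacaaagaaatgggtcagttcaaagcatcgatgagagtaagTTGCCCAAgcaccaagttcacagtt

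Serpina1e, an alpha-1-antitrypsin gene, carried the strongest of these promoter sites, at 60.3 normalized tags (all tag counts are per 10 M tags), with its centre 159 bp upstream of the start. The serum amyloid gene Saa1 had 45.5 tags and the fibrinogen beta-chain gene Fgb 29.8, with centres likewise 159 bp upstream. Mgst1, a microsomal glutathione transferase, had 25.8 tags at 83 bp upstream, and Ddc, which makes dopamine and serotonin from their precursors, had 24.8 tags at 14 bp downstream. Serpina1e and Saa1 belong to families of near-identical copies, so reads could have been shared between copies and their values are uncertain. The Serpina1e window held the GR hexamer 224 bp and a CEBP match 211 bp upstream of the start, and the windows of Saa1 and Fgb each held a CEBP match but no GR hexamer. The other 3 of the 8 lay at starts of the noncoding genes E030018B13Rik (28.3 tags), Gm11714 (28.3) and 4833411C07Rik (25.3).

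A palindromic GR element, searched as GNACA and TGTNC separated by 3 bases, was present in 2 of the 312 windows that held a member (0.641%, interval 0.0777 to 2.30%). It was present in 3 of 85 windows with a kept site (3.53%, 0.734 to 9.97%). Of windows with a constant site 23 of 729 held it (3.16%, 2.01 to 4.70%), and of all windows 156 of 32851 (0.475%). The interval of missing sites overlaps those of kept and constant sites, and with so few windows no difference was tested. The elements of missing and kept sites are printed with up to 20 bases on each side, the element in capitals, to show where they lie; these 5 genes were named after their values were seen.
Cenps (missing in dKO, element at chr4:149137811-149137823, minus strand): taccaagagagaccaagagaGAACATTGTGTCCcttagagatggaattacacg
Kcna5 (missing in dKO, element at chr6:126535602-126535614, minus strand): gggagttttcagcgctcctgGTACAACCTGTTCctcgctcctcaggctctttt
Lca5l (kept in dKO, element at chr16:96192490-96192502, minus strand): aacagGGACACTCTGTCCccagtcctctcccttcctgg
Gm35268 (kept in dKO, element at chr19:27312829-27312841, plus strand): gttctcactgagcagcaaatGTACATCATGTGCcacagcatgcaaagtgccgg
Gm34099 (kept in dKO, element at chr8:57410205-57410217, plus strand): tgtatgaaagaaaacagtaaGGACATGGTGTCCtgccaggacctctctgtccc

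Both missing sites were weak peaks, with 8.16 tags at the centromere protein gene Cenps and 6.33 tags at the potassium channel gene Kcna5. At Cenps the peak centre was 39 bp upstream of the start and the element ran from 223 to 211 bp upstream, outside the peak. At Kcna5 the centre was 37 bp upstream and the element ran from 59 to 47 bp upstream, inside the peak. The 3 kept sites had 44.0 tags at Lca5l, 47.1 at Gm35268 and 20.1 at Gm34099, and at Lca5l the peak centre was 243 bp upstream with the element running from 245 to 233 bp upstream. For single motifs the intervals of members held the share of all windows: the GR hexamer was in 19.6% (15.3 to 24.4%) against 19.0% of all windows, the CEBP motif in 13.8% (10.2 to 18.1%) against 10.8%, and the forkhead motif in 5.45% (3.21 to 8.58%) against 3.65%. The hexamer AGGTCA was in 15.1% (11.3 to 19.5%) against 16.3%, and GTTAAT in 6.09% (3.71 to 9.35%) against 7.10%. TGTTCT can form the second arm of a GR element, so the first 2 searches overlap. Median GC content was 59.3% in windows with a member, 51.7% with a kept site, 61.3% with a constant site and 52.7% over all windows.

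Most missing sites were weak. Their GR tag count in control dexamethasone ran from 4.16 to 83.3 with a median of 7.83, where 80% of sites lay between 5.33 and 15.3. Kept sites had a median of 12 and a highest value of 223.6, and constant sites a median of 15.1 and a highest value of 777.6. Since a site has to be absent from 3 other lists to be a member, and weak peaks are the ones most often absent, these levels follow the choice of members and are given as a description.

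**Figure D1:**
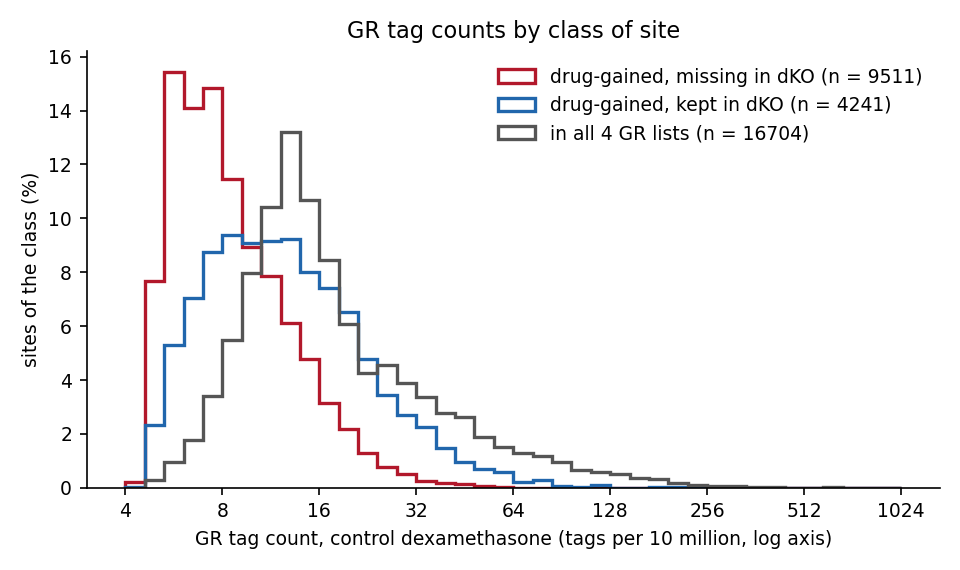
Distribution of GR tag counts in control dexamethasone liver for the 3 classes of site. The horizontal axis gives tags per 10 M tags on a log axis, the vertical axis the percentage of each class; missing sites sit lowest (median 7.83), kept sites in between (12) and constant sites highest (15.1).

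When the control dexamethasone list was cut into 5 equal classes of tag count, 4389 members (46.1%) fell in the weakest class, from 4.16 to 7.49 tags. The next classes held 2473 (26.0%), 1360 (14.3%), 947 (9.96%) and 342 (3.60%). Read the other way, members made up 53.7% of the weakest class and 4.19% of the strongest, which began at 20.8 tags. Only 1852 members (19.5%) lay above the list's median of 12 tags, against 48.9% of kept and 69.7% of constant sites. Members also stood little above their surroundings: the fold over the local 10 kb had a median of 5.95, against 7.87 at kept and 12.5 at constant sites, where the authors required 4. It was under 8 at 76.7% of members, at 51.4% of kept and at 20.7% of constant sites.

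The 12 strongest missing sites had tag counts between 49.3 and 83.3, and rank 731 to 1881 in the list of 40853 peaks. The strongest lay 2.76 kb outside Agtpbp1, which encodes an enzyme that removes glutamates from tubulin tails (chr13:59446679-59446879). It had 83.3 tags at 46.8-fold over the local 10 kb in control dexamethasone, while the nearest peaks of the other lists had 11.8 tags in control vehicle (6579 bp away), 12.8 in dKO vehicle (7939 bp) and 14.1 in dKO dexamethasone (7837 bp). No NCOR1 peak lay within 6 kb of it, the nearest being 6497 bp away under vehicle. A site inside Fam171b (chr2:83833204-83833404) was similar, with 58.1 tags at 35.9-fold over local and all other-list GR peaks at least 52587 bp away. These 2 sites were the isolated ones among the 12, since the other 10 had a GR peak of another list within 5 kb.

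Lpin1, which encodes lipin 1, a phosphatidate phosphatase and transcriptional coactivator of fat metabolism, had the second strongest missing site (chr12:16631289-16631489, 71.6 tags). Its neighbour 766 to 789 bp away was a peak of all 3 other lists, with 138.5 tags in control vehicle, 54.1 in dKO vehicle and 98.1 in dKO dexamethasone, and the missing site itself was only 4.81-fold over local. At Arrdc2, a gene of the arrestin-domain family (chr8:70834228-70834428), 54.3 tags lay 630 to 645 bp from peaks of 68.3, 19.1 and 114.7 tags in the same order. Klf15, a Krüppel-like factor that drives amino acid catabolism and gluconeogenesis, had a missing site of 49.5 tags 14.5 kb outside the gene (chr6:90506188-90506388), and the nearest other peaks lay 2063 to 3035 bp off at 118.7, 56.8 and 26.8 tags. Thus the strong members at these 3 genes stood beside GR peaks that were present without the drug and in dKO.

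Of the remaining strong members, those at Pemt, Scp2 and Thrsp were assigned to genes of lipid handling. Pemt, which makes phosphatidylcholine by methylation, had 50.3 tags inside the gene (chr11:60007142-60007342), Scp2, a sterol carrier, had 51.1 tags inside the gene (chr4:108130487-108130687), and Thrsp, the lipogenic protein Spot 14, had 50.0 tags 4.37 kb from the gene (chr7:97421817-97422017). Pdlim5, a scaffold of the actin cytoskeleton, had 56.3 tags inside the gene (chr3:142376756-142376956), with a dKO dexamethasone peak of 100.3 tags 4215 bp away. A site 32.4 kb from the lysosomal transporter gene Mfsd1 had 51.8 tags (chr3:67550248-67550448), and one inside Wbp1l had 49.3 tags (chr19:46645154-46645354), with GR peaks of 70.5 to 133.6 tags in the other lists 1082 to 1097 bp away.

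**Figure D2:**
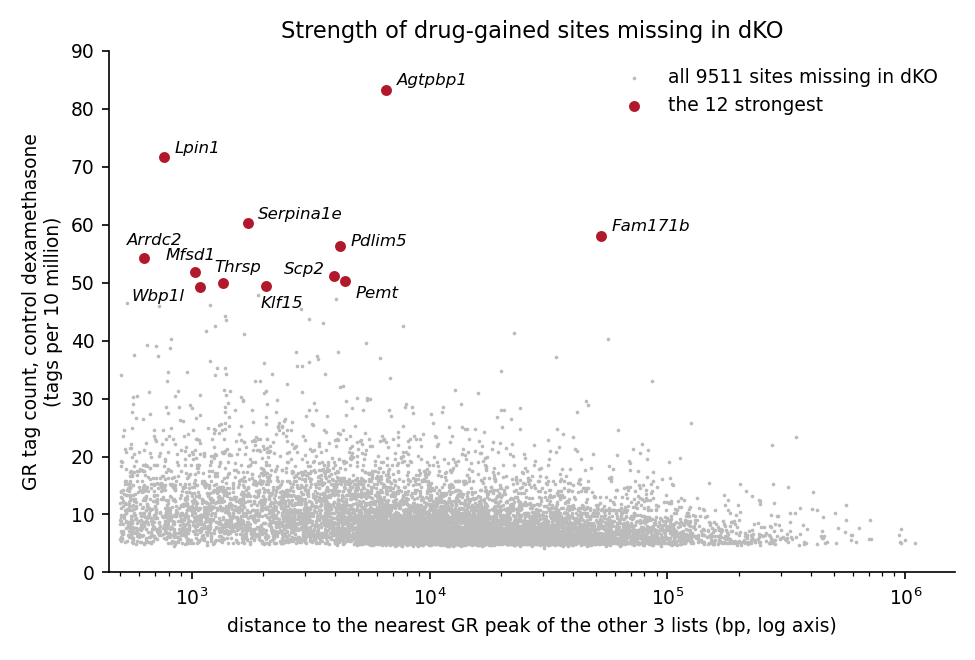
GR tag count in control dexamethasone (vertical axis, tags per 10 M tags) against distance to the nearest GR peak of the other 3 lists (horizontal axis, bp, log axis) for each of the 9511 missing sites. The 12 strongest are named; 10 of them have such a peak within 5 kb, whereas Agtpbp1 and Fam171b lie at 6579 and 52587 bp.

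Among members, strong sites lay nearer to GR peaks of the other lists than weak ones. The rule leaves no such peak within 500 bp, and these distances were not compared with those of kept or constant sites. Outside the rule, another peak of the control dexamethasone list itself lay within 5 kb of 29.7% of members (28.8 to 30.7%). The shares were 32.2% at kept sites, 25.1% at constant sites and 28.7% over all peaks of that list. By this measure members lay near the whole list. The nearest GR peak of the other lists lay within 1000 bp at 649 members (6.82%), farther but within 5000 bp at 2059 (21.6%), between 5000 and 20000 bp at 3920 (41.2%) and beyond that at 2883 (30.3%), with a median of 10.4 kb. Among the 342 members of the strongest class, 17.0% (13.1 to 21.4%) fell in the first band and 51.5% (46.0 to 56.9%) in the second, against 3.60% and 10.5% of the weakest class. Of the 81 members above 30 tags, 19 lay within 1000 bp and another 48 within 5000 bp of a GR peak of another list, and at 49 the fold over local was under 8. Members with such a peak within 1000 bp had a median of 10.7 tags but only 4.94-fold over local, and those beyond 20 kb had 6.83 tags and 7.18-fold. Strong GR neighbours raise the local 10 kb against which a peak is called, and their part in whether a shoulder peak was called in 1 list and not in another was not tested.

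**Figure D3:**
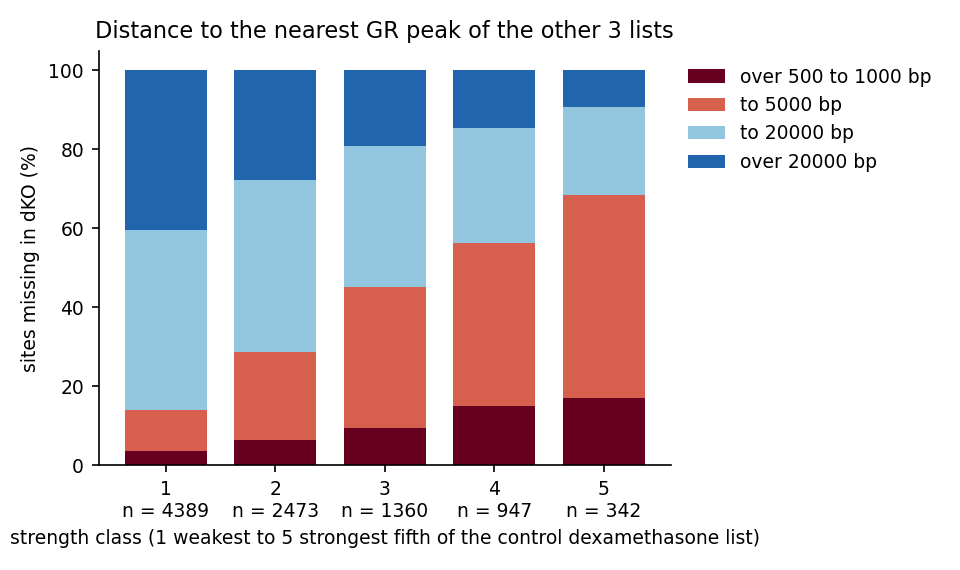
Missing sites by distance to the nearest GR peak of the other 3 lists, for each strength class. The horizontal axis gives the class (1 weakest to 5 strongest) with its number of sites, the vertical axis the percentage of the class; sites within 1000 bp rise from 3.60% in class 1 to 17.0% in class 5.

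Values on both sides of the 500 bp limit were alike. The 175 members whose nearest other peak lay up to 100 bp beyond the limit had a median of 10.7 tags, and the 157 non-members up to 100 bp inside it had 10.3. The strongest members next to the limit lay in Ube2g2, a ubiquitin-conjugating enzyme gene (46.5 tags), in the xanthine dehydrogenase gene Xdh (37.5) and near the receptor gene Gpr182 (34.0). The strongest non-members next to it were a site on chromosome 13 with no protein-coding gene within 100 kb (chr13:52022581-52022781, 70.8 tags), one near the acute phase gene Orm1 (53.6) and one near the flippase gene Atp11b (52.8). With a limit of 250 bp the rule gave 9977 members and with 1000 bp 8862, so distance changed the count little. Strength changed it more: requiring 8-fold over local in the control dexamethasone list left 2216 members, requiring it in all 4 GR lists gave 5966, and cutting all GR lists to the 23362 strongest peaks gave 3061.

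NCOR1 was mapped in separate libraries, and its peaks were not part of the rule. In control liver under dexamethasone 3953 missing sites (41.6%, interval 40.6 to 42.6%) had an NCOR1 peak within 500 bp, where 52.6% of all control dexamethasone GR peaks did. Under vehicle, when no GR peak was called at these sites, 3024 (31.8%, 30.9 to 32.7%) had one, against 47.8% of all. In dKO vehicle liver 1121 (11.8%, 11.1 to 12.5%) had a peak with the NCOR1 antibody, against 16.0% of all. With only NCOR1 peaks of 8-fold over input counted, the shares at missing sites were 23.2%, 19.3% and 6.26% in the same order. With all NCOR1 peaks counted, the shares at kept sites were 39.7%, 24.6% and 11.5% in the same order. At constant sites they were 49.7%, 48.4% and 17.2%.

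Because NCOR1 peaks were most frequent in the strongest class of the list (68.9% under vehicle and 76.5% under dexamethasone), shares were compared within the 5 classes of tag count. Under vehicle the share with NCOR1 among all peaks was 35.8% in the weakest class, then 43.2%, 40.0% and 50.9%. Among missing sites it was 25.0% in the weakest class, then 34.8%, 41.3% and 40.1%, and 36.3% in the strongest. Among kept sites it was 24.9%, 28.6%, 28.4%, 24.8% and 15.7%. In the strongest class the intervals of missing (31.2 to 41.6%) and kept sites (13.2 to 18.5%) were far apart, and in the weakest they overlapped. Under dexamethasone missing sites had 34.8%, 46.0%, 49.2%, 49.0% and 45.6%, and kept sites 36.5%, 41.0%, 41.0%, 42.4% and 37.0%. Constant sites had 26.8%, 27.9%, 24.6%, 46.0% and 84.4% under dexamethasone, so missing sites lay above them in the 3 weakest classes and below them in the strongest, which spans tag counts from 20.8 upward.

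Standardised over the 5 classes, NCOR1 under vehicle was 8.85 percentage points more frequent at missing than at kept sites (95% interval 7.10 to 10.6), and under dexamethasone 4.43 points (2.53 to 6.32). In dKO vehicle liver the difference was -1.97 points (-3.25 to -0.698). These differences depended on which NCOR1 peaks were counted and on how strength was measured. With NCOR1 peaks of 8-fold over input the vehicle difference was 5.14 points (3.65 to 6.64) and the dexamethasone difference 0.94 (-0.713 to 2.60), an interval that holds 0. With 5 classes of fold over the local 10 kb, chosen after seeing the data, the vehicle difference was 1.71 points (0.0217 to 3.40) and the dexamethasone difference -1.45 (-3.32 to 0.410). With classes of fold over input they were 3.22 (1.57 to 4.87) and -0.48 (-2.31 to 1.34). With classes of the peak caller's findPeaks score they were 9.04 (7.29 to 10.8) and 4.58 (2.68 to 6.48). Over these measures of strength the vehicle difference kept its sign at 1.71 to 9.04 points, and the dexamethasone difference changed sign.

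**Figure D4:**
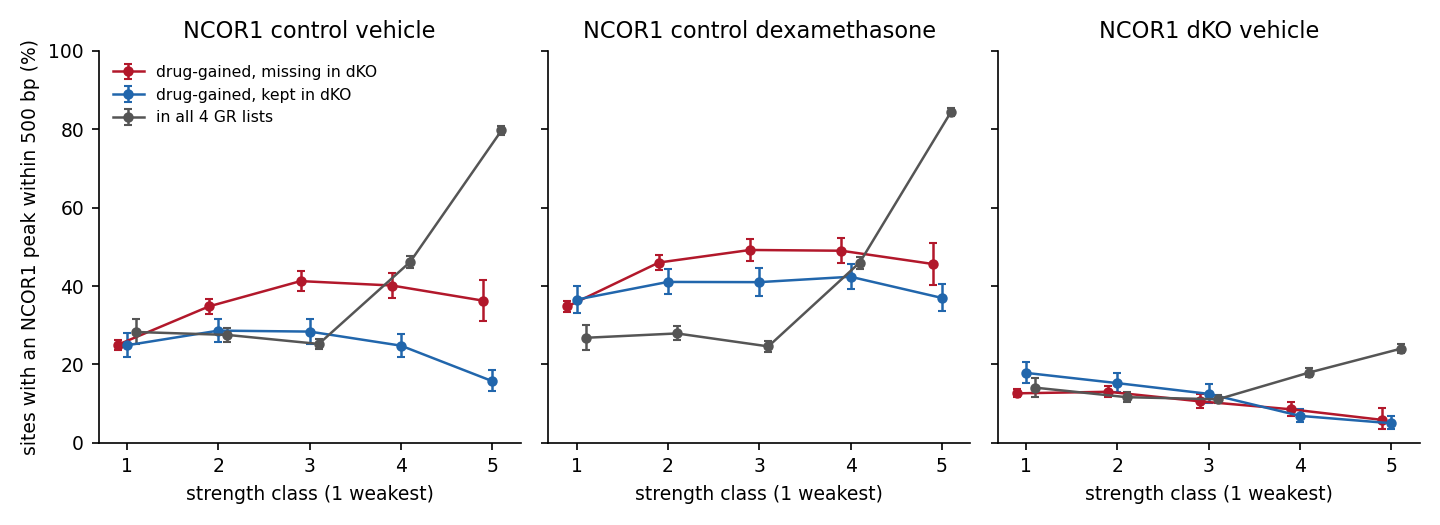
Share of sites with an NCOR1 peak within 500 bp (vertical axis, %) by GR strength class (horizontal axis, 1 weakest to 5 strongest) in the 3 NCOR1 lists. Points are shares and bars exact 95% intervals; under vehicle, missing sites of class 5 lie at 36.3% and kept sites at 15.7%, while constant sites reach 79.7%.

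Taking both control NCOR1 lists together, 2396 missing sites (25.2%) had NCOR1 under vehicle and dexamethasone, 1557 (16.4%) under dexamethasone and not vehicle, 628 (6.60%) under vehicle and not dexamethasone, and 4930 (51.8%) in neither. NCOR1 under the drug alone was found at 10.1% of all control dexamethasone GR peaks, 18.7% of kept sites and 4.56% of constant sites. Both classes gained under the drug thus had drug-only NCOR1 peaks more often than constant sites. The reverse pattern, under vehicle and not dexamethasone, was found at 5.33% of all peaks, 3.61% of kept and 3.25% of constant sites. At missing sites, NCOR1 in only 1 control list was thus more frequent than at constant sites in both directions. The vehicle list rests on 17.8 M tags from 1 library and the dexamethasone list on 36.9 M from 2. These patterns were not compared within classes of GR tag count. The parts of depth and of GR and NCOR1 peak height in this split were not tested. NCOR1 peaks at missing sites were of modest height, with a median of 12.7 tags under vehicle (15.5 over the whole list) and 10.4 under dexamethasone (12.2), against 26.7 and 20.2 at constant sites. At kept sites the median was 12.9 tags under vehicle, and the dexamethasone median was also nearer to that of missing than of constant sites. NCOR1 centres at missing sites lay close to the GR centre, at a median of 42 and 33 bp. Of these, 56.3% and 65.4% were within 50 bp. The shares within 50 bp were 56.1% and 67.8% at kept sites and 63.5% and 69.2% at constant sites. Neither height nor closeness of NCOR1 thus set missing sites apart from kept sites.

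The strongest members with NCOR1 under dexamethasone and not vehicle were those at Fam171b, Pdlim5 and Pemt described above, followed by Spon1 (44.3 tags), an extracellular matrix protein gene, and Shb (38.8), an adaptor of tyrosine kinase signalling. At Fam171b the NCOR1 peak had 16.5 tags 4 bp from the GR centre, at Pdlim5 8.94 tags at 4 bp, and at Shb 27.2 tags at 46 bp. With NCOR1 in both conditions, Lpin1 led: its nearest dexamethasone NCOR1 peak, of 28.7 tags, lay 10 bp from the GR centre. The nearest vehicle peak, of 35.7 tags, lay 0.401 kb away. At Scp2 the nearest NCOR1 peaks had 29.4 tags at 12 bp under dexamethasone and 23.6 tags at 0.41 kb under vehicle. Only the nearest peak of each list was read, so a move of NCOR1 cannot be told from an added peak. At Fbxo31, an F-box protein gene (46.0 GR tags), NCOR1 had 60.8 tags under vehicle and 59.7 under dexamethasone, within 30 bp of the GR centre. Enpp2, the gene of autotaxin (41.1 GR tags), and a site 4.24 kb from Saa1 (40.3 GR tags) had 17.2 NCOR1 tags each under vehicle, and 11.5 and 17.6 under dexamethasone, all within 3 bp. The Saa1 promoter site printed above had 20.8 NCOR1 tags 6 bp away under vehicle, and under dexamethasone the nearest NCOR1 peak was 2901 bp away.

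Missing sites were mostly distal. A protein-coding gene body held 56.9% of them, near the 55.5% of the whole list, and exons and introns were not analysed here. On the chromosomes with promoter windows 969 of 9198 members (10.5%, 9.91 to 11.2%) lay within 1000 bp of a transcription start, where 12.4% of all control dexamethasone peaks, 7.19% of kept and 13.0% of constant sites did. Within 250 bp the shares were 5.40% of members, 6.80% of all, 3.25% of kept and 7.35% of constant sites. In the middle class of tag count 10.5% of missing (8.92 to 12.3%) and 5.79% of kept sites (4.24 to 7.69%) were within 1000 bp of a start. In the weakest class the shares were 9.86% and 10.8%, and in the next 12.8% (11.5 to 14.2%) and 7.14% (5.53 to 9.05%). Intervals overlapped in class 4, at 8.55% (6.83 to 10.5%) and 6.32% (4.81 to 8.13%). They also overlapped in the strongest class, at 8.76% (5.95 to 12.3%) and 5.92% (4.35 to 7.84%). Members were spread over the genome, making up between 21.6% of peaks on chromosome 19 and 26.1% on chromosome 11 among the autosomes, and 24.3% on the X chromosome.

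By nearest protein-coding gene within 100 kb, 5401 genes had 1 or more members, 45.0% of the 11998 genes with any control dexamethasone GR peak, and 948 members had no gene within that distance. Of the 11998 genes, 1793 (14.9%) had 2 or more members, and for 1249 (10.4%) members were the only control dexamethasone GR peaks. No GR peak of any other list was assigned to 929 of those 1249. The genes with most members were long: Arid1b, a subunit of the BAF chromatin remodeller, with 16 of its 39 peaks, the zinc finger gene Zbtb20 with 14 of 41, the orphan nuclear receptor gene Esrrg with 12 of 16, the forkhead gene Foxp1 with 11 of 33 and the scaffold gene Magi1 with 11 of 25. Esrrg, a receptor known to raise gluconeogenic genes in liver, had 5 GR peaks in control vehicle, 4 in dKO vehicle and 4 in dKO dexamethasone. Of its 16 in control dexamethasone, 12 are members and so absent from the other lists by the rule. The contrast of 16 with the other counts therefore largely follows the choice of members and is not a finding. The strongest member at Esrrg had 29.5 tags at 25.8-fold over local.

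Canonical GR targets and feedback genes had 26 members among their 178 peaks (14.6%, interval 9.77 to 20.7%, against 23.3% of the list), at 14 of 24 genes with a peak. Besides Arrdc2 and Klf15, the strongest were at the metallothionein gene Mt1 (43.0 tags, 2.27 kb outside) and inside Zbtb16 (35.6), a zinc finger repressor induced by glucocorticoids. Gluconeogenic genes and their regulators had 26 members of 133 peaks (19.5%) at 11 of 21 genes. They were led by the coactivator gene Ppargc1a (25.0 tags, 561 bp from another GR peak), the pyruvate carboxylase gene Pcx (22.6), the forkhead gene Foxo3 (19.0) and the aspartate aminotransferase gene Got1 (13.7). The forkhead gene Foxo1, whose product insulin keeps out of the nucleus, had 6 members among 10 peaks, the strongest at 13.2 tags. Amino acid catabolism and urea cycle genes had 21 of 105 (20.0%) at 14 of 26 genes. They were led by Haao (34.3) and Hpd (26.6), enzymes of tryptophan and tyrosine breakdown, then Cdo1 (14.8, 39.5 kb away) and Asl (14.0).

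Genes of insulin signalling and glycogen had 22 of 140 peaks (15.7%, interval 10.1 to 22.8%) at 11 of 19 genes. After Lpin1 these were the glycogen-targeting phosphatase subunit gene Ppp1r3b (34.3 tags), Irs2 (25.3, at a noncoding start 84.8 kb away) and the phosphoinositide kinase subunit gene Pik3r1 (22.0). Lipogenic genes had 35 of 135 (25.9%, 18.8 to 34.2%, an interval that holds the 23.3% of the list) at 14 of 21 genes. After Lpin1 and Thrsp the strongest was at the fatty acid elongase gene Elovl6 (30.3 tags, 8 members among 21 peaks). Insig1, a brake on sterol synthesis, followed (19.3, 67.1 kb away). Fatty acid oxidation genes had 20 of 97 (20.6%) at 12 of 21 genes, led by the receptor gene Ppara (31.3) and the carnitine palmitoyltransferase gene Cpt2 (20.5), with Acadm (16.3) and Acsl1 (15.3) next. At Cpt2 the member had NCOR1 peaks of 61.0 tags under vehicle and 44.6 under dexamethasone 104 and 103 bp away.

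Acute phase and inflammation genes had 28 members of 109 peaks (25.7%) at 16 of 22 genes, led by the Saa1 promoter (45.5 tags), Orm1 (41.6), the Fgb promoter (29.8) and the interleukin-1 receptor subunit gene Il1rap (26.5). Hepatocyte lineage and plasma protein genes had 23 of 135 (17.0%) at 15 of 25 genes: after Fgb these were Prox1 (24.8, 74.3 kb away), Apoa2 (23.5) and Cebpa (19.1 tags, 39 bp from its start, with NCOR1 peaks of 59.4 and 39.8 tags under vehicle and dexamethasone). Nuclear receptor and corepressor complex genes had 41 of 185 (22.2%) at 19 of 25 genes. Among them were the liver X receptor gene Nr1h3 (20.6 tags, 67 bp from its start) and the GR gene itself, Nr3c1 (19.3). The thyroid hormone receptor gene Thrb (18.6) and Nr5a2 (17.3, 50.3 kb away) followed. Growth hormone and STAT5 axis genes had 23 of 117 (19.7%) at 9 of 17 genes, led by Bcl6 (25.3). The growth hormone receptor gene Ghr (22.8, 35.1 kb away, 8 members among 21 peaks) came next. Mup20 (22.5, 34.9 kb away, a gene of a family of near-identical copies) and Hsd3b5 (14.5, 32.4 kb away) followed.

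The lowest shares were at bile acid and cholesterol genes, 12 of 110 peaks (10.9%, interval 5.77 to 18.3%) at 8 of 23 genes, and at circadian clock genes, 13 of 99 (13.1%, 7.18 to 21.4%) at 5 of 19 genes. The former were led by the organic anion transporter gene Slco1b2 (30.3 tags), the lipoprotein receptor gene Scarb1 (20.0), Cyp8b1 (16.2), which sets the balance of bile acids, and Abcb4 (14.7). The latter were led by Per2 (22.3), Clock (20.6), Rora (19.3) and Nfil3 (7.16). Drug and hormone metabolism genes had 18 of 96 (18.8%) at 13 of 20 genes. The strongest were Gstm1 (20.3), Akr1d1 (16.5, 23.3 kb away), Cyp2a5 (15.7, 35.5 kb away) and Ugt2b1 (12). Orm1 and several of these enzyme genes belong to families of similar copies, so their values are uncertain. Peaks of 1 gene share that gene, and no list was tested against the others. Members were most frequent among weak peaks, and the shares by gene list were not adjusted for GR tag count.

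Markers of other cells also had members, although they mark expression and not where GR binds. Neuronal genes had the highest share of all 16 lists, 25 of 83 peaks (30.1%, 20.5 to 41.2%) at 11 of 15 genes. They were led by Ctnna2 (19.3 tags), Syt1 (13.5), Map2 (13.0) and Cntnap2 (8.82, 21.9 kb away). Endothelial, stellate and cholangiocyte markers had 17 of 65 (26.2%, 16.0 to 38.5%) at 7 of 18 genes. Among these were the sinusoidal scavenger receptor gene Stab2 (16.0), Cdh5 (12.7), Flt1 (11.7) and Reln (6.83). The intervals of both lists hold the 23.3% of all control dexamethasone GR peaks. Members of both lists had a median of 6.49 tags, lower than the 7.83 of all members, and the medians of the other 14 lists ran from 8.27 at Kupffer and leukocyte markers and 8.33 at clock genes to 14.8 at insulin signalling genes. Kupffer cell and leukocyte markers had 2 members of 9 peaks, at Itgam (11.2) and Cd3e (5.33). Hepatocyte and other cell sources of a peak cannot be told apart in whole liver.

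**Figure D5:**
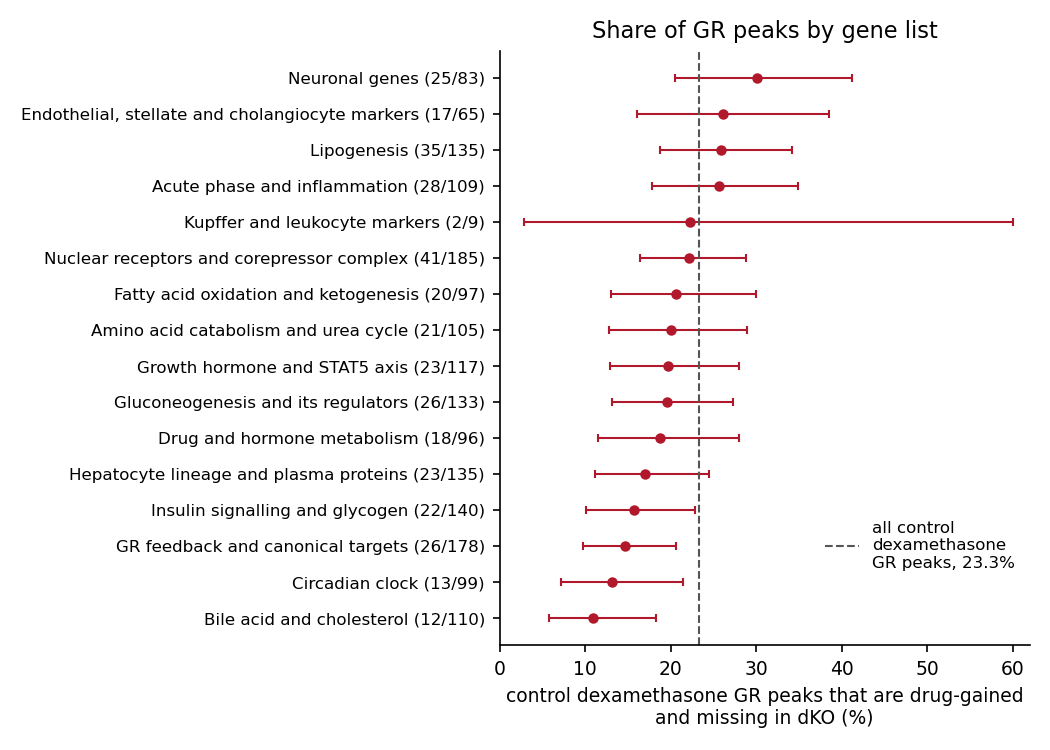
Share of control dexamethasone GR peaks that are drug-gained and missing in dKO (horizontal axis, %) for each of 16 gene lists, with members and peaks in brackets. Bars are exact 95% intervals and the dashed line is the share in the whole list, 23.3%; bile acid (10.9%) and clock genes (13.1%) lie lowest and neuronal genes (30.1%) highest. Shares are not adjusted for GR tag count.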

How the data were processed

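GR and NCOR1 ChIP-seq peak lists of mouse liver were used, 4 for GR and 3 for NCOR1, each called on the pooled libraries of 1 group, so 12 ChIP libraries and 1 input library stand behind 7 lists. The submitters' processing notes list HOMER 4.11, BWA 0.7.17, bedtools 2.29.2, Trim Galore 0.6.4 and, as build, mm10. Peaks are 200 bp wide, at least 4-fold over input and over the local 10 kb and at least 400 bp apart, per the file headers. Each peak's normalized tag count is a signal the authors scaled to 10 M tags (M, 10 to the power of 6), per the file headers. The findPeaks score and the fold (a ratio) over input and over the local 10 kb are the authors' deposited values, used within a list only. The Poisson p-value against input is likewise deposited by the authors and was not used as a test. NCOR1 and input libraries were size selected and GR libraries were not, per the labels, which could shift peak shape between them. Depth ranged from 17.5 to 36.9 M tags per list. No call in a list does not show that GR was absent.

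Peaks were compared by centre distance (limit 500 bp) in Python 3.11.15 with numpy 2.4.6, pandas 2.3.3, scipy 1.17.1 and matplotlib 3.10.9. The distance and standardisation code was tested on simulated data. Shares carry exact 95% Clopper-Pearson intervals, and class differences are Mantel-Haenszel differences over 5 equal classes of tag count. Since replicates were pooled and peaks are not replicates, no p-value was computed. Genes (21883 protein-coding) and 32851 promoter windows came from RefSeq GRCm38.p6, where start-site shares use the 9198 members on chromosomes with windows, and chromosome 18 windows were not used here. Genes were named by rule: the 12 strongest members, up to 4 genes per list, the 5 genes with most members, the 5 strongest members of each of 2 NCOR1 patterns, up to 8 in promoter windows, and 3 on each side of the distance limit. Foxo1 was named after its values were seen. The members, the 16 gene lists and the tests were chosen with earlier results of these data known. One item of the knockout genotype is not reported here.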

Additional observations from a re-analysis of the deposited data

How the results depend on the processing

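No paired analysis was possible because replicates were pooled in each list. The number of members stayed within 1.5 times of 9511 with limits of 250 and 1000 bp, with overlap in place of distance and with 8-fold over input in all 4 GR lists. It was 4520 with 8-fold over input and 2216 with 8-fold over local in the control dexamethasone list, 5966 with 8-fold over local in all 4 lists, 3061 with GR lists of equal length and 1852 above the median tag count. The share of members with NCOR1 in control dexamethasone liver (41.6%) was 38.5%, 36.9%, 57.2%, 51.3% and 48.5% under these same settings. It was 51.6% with 8-fold over input in all 4 lists, 42.8% at 250 bp and 43.2% by overlap of GR peaks. With NCOR1 counted by overlap, within 1000 bp or at 8-fold over input it was 38.8%, 45.7% and 23.2%, and it was 33.5% without NCOR1 peaks near a dKO peak. The vehicle share (31.8%) was 28.4%, 36.7% and 19.3% under the first 3 of these and 30.1% with NCOR1 lists of equal length. The dKO vehicle share (11.8%) was 10.0%, 14.2% and 6.26%. The standardised vehicle difference (8.85 points) was 10.67 within 1000 bp and 5.14 with NCOR1 peaks of 8-fold, and the dexamethasone difference (4.43) was 0.94 (-0.713 to 2.60) with the latter. With classes of fold over local they were 1.71 and -1.45, and with classes of fold over input 3.22 and -0.48, so the dexamethasone difference reversed. These 2 settings were chosen after seeing the data, as were sites over 1000 bp from a start (8.73 and 4.66). So were sites with no other peak of the control dexamethasone or either vehicle GR list within 5 kb (7.14 and 3.95). The dKO dexamethasone list was not used for the latter. Genes with a member numbered 3571 counting gene bodies only, against 5401, and 8.58% of members above the median tag count lay within 1000 bp of a start, against 10.5%. The cause of each change was not tested. Depth and pooling limit what an absent peak says: tags at the members' positions in the other 3 lists are not part of peak lists.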
